A study of Mus musculus with 9 samples.

Results

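The 86 genes described here are the nuclear genes for subunits of the mitochondrial respiratory chain and of ATP synthase. They were chosen by symbol among 57126 genes of the count table: protein-coding genes of the Nduf series with a subunit letter and number, Sdha to Sdhd, the Uqcr genes, Cyc1, the Cox4 to Cox8 genes and the Atp5 genes. Cox6a2 was left out. The set holds 38 genes of complex I, 4 of complex II, 9 of complex III, 17 of complex IV and 18 of complex V. Atp5po has a second gene model that shares exons with it and received nearly the same fragments, so it was counted once.

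The libraries came from mouse plasmacytoid dendritic cells (pDCs), immune cells known for secreting type I interferon when they sense nucleic acids. The cells were sorted by flow cytometry and treated with the vehicle PBS, with mtDNA (mitochondrial DNA) or with Ox-mtDNA (oxidized mitochondrial DNA), and each treatment has 3 libraries of polyadenylated RNA, numbered 1 to 3. The strain, age, number of animals, dose and duration are not given in the sources used here. The labels do not say whether same-group libraries came from separate animals. The p-values therefore measure the spread between these libraries, which may be partly technical. In each group the third library also differed from the others in sex-linked transcripts, as described below. The question the design poses for these genes is whether exposure to mtDNA, oxidized or not, was accompanied by a change in the nuclear transcripts of the machinery that mitochondrial DNA also helps to encode.

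Complex I (NADH dehydrogenase) and complex II (succinate dehydrogenase) feed electrons into the chain, complex III passes them to cytochrome c, and complex IV (cytochrome c oxidase) hands them to oxygen. Complexes I, III and IV pump protons, and complex V (ATP synthase) uses the proton gradient to make ATP. All of these complexes except complex II are mosaics of subunits from the nucleus and from mitochondrial DNA, and transcription of the nuclear genes is known to depend on factors such as NRF1, the ETS factor GABP, YY1 and the estrogen-related receptors.

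All complexes were expressed in every library, and no member passed the test in any comparison. Between 16029951 and 25378884 counts were assigned per library. Of the 86 members, 81 had enough counts to be tested, and the 5 others (Cox4i2, Cox7b2, Cox8b, Cox8c and Ndufa4l2, all tissue-restricted isoform genes) were at or near 0. Levels below are in CPM, counts relative to library sizes scaled by TMM, and levels of different genes are compared only per kilobase of annotated exon. The pDC markers were detected in every library. Their 12 genes summed to between 4911 and 12843 CPM, and Siglech, a surface lectin of mouse pDCs, lay between 1194 and 2440 CPM. These 12 genes were not uniform across libraries. Pacsin1 measured 5.618, 9.515 and 12.74 CPM in the third library of PBS, mtDNA and Ox-mtDNA, and at least 78.23 CPM elsewhere. Tlr9 was also lowest in the third library of each group. Irf8 and Runx2 were lowest there in PBS and mtDNA but not in Ox-mtDNA. Bst2 was highest in the third library of every group. T cell markers summed to at most 40.8 CPM, NK cell markers to at most 122 CPM, neutrophil markers to at most 20.7 CPM and erythroid markers to at most 0.688 CPM, while markers of conventional dendritic cells summed to between 280.3 and 738 CPM. Ox-mtDNA replicate 2 had the lowest pDC sum and the highest B cell sum, 638 CPM against 120 to 393 in the others, and monocyte or macrophage markers ranged from 506 to 803 CPM; their part in the levels below was not tested.

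The 3 libraries numbered 3 stood apart before any treatment was considered. They held 818 to 2087 CPM of Xist, a transcript of the inactive X chromosome, against at most 0.846 CPM in the other libraries, and Y-linked genes summed to at most 5.52 CPM in them against at least 259 CPM elsewhere. Members were higher in the third library of every group. Relative to the mean of replicates 1 and 2 on the log2(CPM + 0.5) scale, the members' median was 0.79 higher in PBS, 0.52 in mtDNA and 0.70 in Ox-mtDNA, where the medians of all tested genes were 0.07, -0.10 and -0.03. In PBS 78 of 81 members were higher in replicate 3, in mtDNA 68 and in Ox-mtDNA 79. Replicates 1 and 2 differed far less in PBS and mtDNA, by a median of 0.04 and -0.05 over the members, and by 0.28 in Ox-mtDNA.

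The third libraries also differed by base composition. Genes with transcripts of 60% GC or more had medians of -2.08, -1.97 and -2.004 in the third PBS, mtDNA and Ox-mtDNA library, whereas the 4 members in that range had medians of 0.33, 0.31 and 0.45. The members ranged from 41.3% to 61.4% GC with a median of 51.7%, close to the 50.3% of all tested genes. Members lower in replicate 3 numbered 3 in PBS, 13 in mtDNA and 2 in Ox-mtDNA. In mtDNA the most negative was Ndufa5 at -0.62, followed by Cox6b2 at -0.48, Atp5me at -0.43 and Ndufb7 at -0.32. Cyc1, the heme-bearing cytochrome c1 of complex III and the member with the highest GC content, was 0.18 lower in the third PBS library. Uqcrc1, a core protein of complex III, was 0.13 lower in PBS and 0.14 lower in mtDNA. Cox6b2, a testis isoform of a complex IV subunit, was 0.53 lower in PBS. For the 3 tested members encoded on the X chromosome, the third library of PBS, mtDNA and Ox-mtDNA was higher by 0.81, 0.11 and 0.62 for Ndufa1, by 0.99, 0.97 and 0.76 for Ndufb11 and by 0.86, 0.60 and 0.77 for Cox7b. Whether sex, base composition or another difference between the libraries accounts for the third replicate was not tested.

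**Figure D1:**
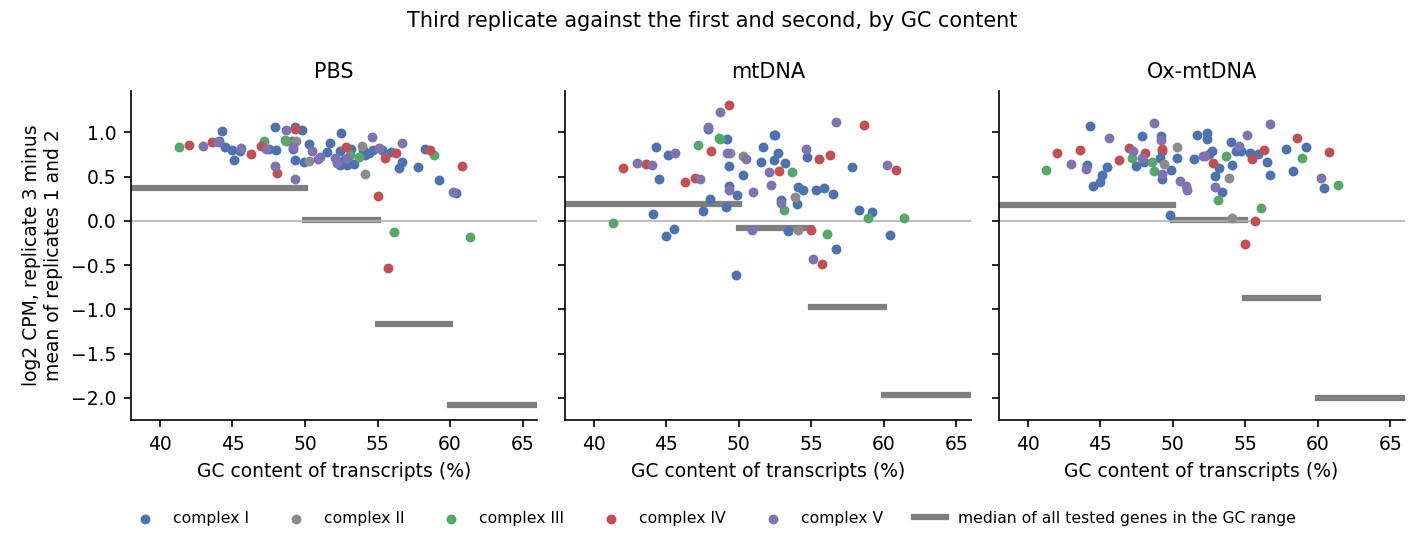
Log2 CPM of each tested member in replicate 3 minus the mean of replicates 1 and 2 (vertical axis) against the GC content of its transcripts in percent (horizontal axis), 1 panel per treatment, points coloured by complex. Thick grey bars are medians of all tested genes in 4 GC ranges; 78, 68 and 79 of 81 members lie above 0 in the PBS, mtDNA and Ox-mtDNA panels, while the grey bars fall to about -2 at high GC.

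Levels differed widely between subunits, and the most abundant transcripts belonged to complexes IV and V. The highest level per kilobase was that of Cox4i1, the largest nuclear subunit of cytochrome c oxidase (chr8:121394961-121400946, GRCm39), at 535 CPM per kb averaged over the 9 libraries. Atp5f1b, the catalytic beta subunit of ATP synthase (chr10:127919142-127926260, GRCm39), followed at 454 CPM per kb. Cox6a1 at 270, Atp5f1a at 262 and Cox8a at 250 CPM per kb came next. The median of tested members was 40.2 CPM per kb for complex I, 82.2 for complex II, 68.0 for complex III, 90.5 for complex IV and 102 for complex V. Ndufa2 was the most abundant complex I transcript at 111 CPM per kb and Ndufb2 the least abundant tested one at 3.99. These averages rest on the annotated exon length: Atp5mc1, at 10.1 CPM per kb, has 4912 annotated bases, many more than the 731 of Atp5mc2.

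Where a subunit has 2 or more isoform genes, 1 form carried nearly all of the signal in most cases. Cox4i2, the lung and hypoxia isoform of Cox4i1, received 4 counts over all 9 libraries against 72716 for Cox4i1. Cox7b2 received 1 count, Cox8b 7 and Cox8c 0, which allows up to 0.0171 CPM over the pooled libraries by counting error alone. Ndufa4l2, a hypoxia-induced relative of Ndufa4, received 34 counts against 9748 for Ndufa4. Its exons overlap Shmt2 on the other strand, from which reads cannot be told apart here. Cox7a1, the heart and muscle form, averaged 1.24 CPM per kb against 75.8 for Cox7a2, and Cox6b2 averaged 3.51 against 139 for Cox6b1. The 3 genes that encode the same mature c-ring subunit were all expressed, at 158 CPM per kb for Atp5mc3, 132 for Atp5mc2 and 10.1 for Atp5mc1. Their ranges over the 9 libraries overlapped for Atp5mc2 and Atp5mc3 and not for Atp5mc1. The excluded Cox6a2, a heart and muscle isoform that also marks pDCs, averaged 284 CPM per kb beside 270 for Cox6a1, with ranges of 207 to 398 and 205 to 398 CPM per kb. Cox6a2 differed by 0.14 (SE 0.29) between Ox-mtDNA and PBS, with an adjusted p of 1 by edgeR.

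**Figure D2:**
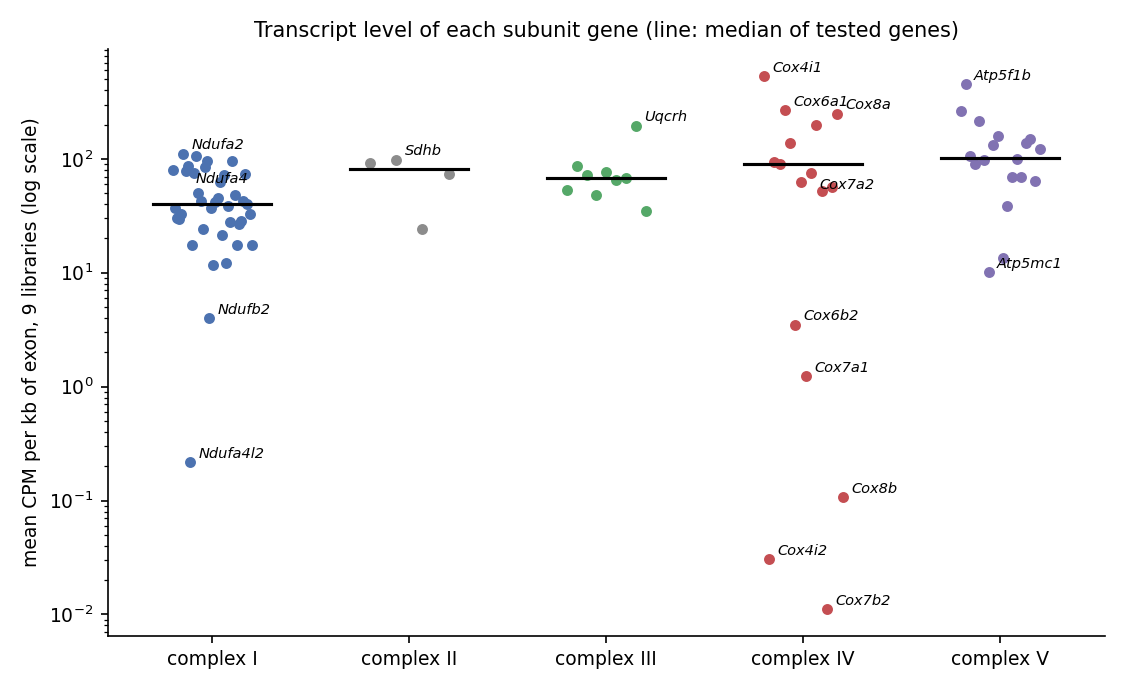
Mean CPM per kilobase of annotated exon over the 9 libraries (vertical axis, log scale) for each member, by complex (horizontal axis); black lines are medians of tested members. Cox4i1 (535) and Atp5f1b (454) lie highest, and the isoform genes Ndufa4l2, Cox8b, Cox4i2 and Cox7b2 lie below 0.5; Cox8c, at 0, cannot be drawn on a log axis.

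Many but not all promoters of these genes carry recognisable letters for the factors named above, and a few stretches that hold a match are printed. RefSeq promoters (GRCm38.p6, 250 bases before to 50 after the start) were matched to 70 of the 86 members and searched on both strands for exact letters. The NRF1 motif, whose letters are the capitals in the Ndufs5 and Sdha stretches with 1 central base free, was found in 25.7% of these members and in 7.17% of all protein-coding genes with a promoter. The ETS motif CCGGAAG was found in 24.3% against 12.9%, the YY1 motif AAGATGG in 15.7% against 7.18%, and the estrogen-related receptor motif TCAAGGTCA in 2.86% against 0.377%. At least 1 of the 4 was present in 40 of 70 members, a count for which no share over all protein-coding genes was computed. The other 30 members held none of the 4. No match to one motif overlapped a match to another in the member promoters. By complex, NRF1 letters were found in 7 of 33 genes of complex I, 2 of 3 of complex II, 1 of 5 of complex III, 1 of 13 of complex IV and 7 of 16 of complex V. These are matches of letters and do not show binding. The 120 bases before the start are printed for the complex I genes with the lowest p in Ox-mtDNA against PBS, Ndufb7 and Ndufs5, and for 1 gene of each other complex. Capitals mark a match on either strand: ETS in Ndufb7 and Uqcrh, NRF1 in Ndufs5 and Sdha, NRF1 and then ETS in Cox6a1, and the estrogen-related receptor motif in Atp5mc3.
Ndufb7, chr8:83566638-83566757, plus strand: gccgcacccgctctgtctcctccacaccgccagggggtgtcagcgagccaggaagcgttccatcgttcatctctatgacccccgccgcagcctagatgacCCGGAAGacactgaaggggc
Ndufs5, chr4:123718187-123718306, minus strand: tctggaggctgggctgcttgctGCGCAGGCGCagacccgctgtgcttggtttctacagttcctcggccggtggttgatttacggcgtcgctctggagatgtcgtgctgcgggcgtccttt
Sdha, chr13:74350241-74350360, minus strand: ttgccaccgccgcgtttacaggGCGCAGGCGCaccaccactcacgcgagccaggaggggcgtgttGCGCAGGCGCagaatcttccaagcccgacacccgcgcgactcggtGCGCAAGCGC
Uqcrh, chr4:116075071-116075190, minus strand: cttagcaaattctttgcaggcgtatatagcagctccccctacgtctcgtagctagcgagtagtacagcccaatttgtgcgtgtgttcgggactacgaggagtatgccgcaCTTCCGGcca
Cox6a1, chr5:115348959-115349078, minus strand: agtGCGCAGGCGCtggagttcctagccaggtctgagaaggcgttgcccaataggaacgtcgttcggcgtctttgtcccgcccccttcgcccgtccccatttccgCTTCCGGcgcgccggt
Atp5mc3, chr2:73911327-73911446, minus strand: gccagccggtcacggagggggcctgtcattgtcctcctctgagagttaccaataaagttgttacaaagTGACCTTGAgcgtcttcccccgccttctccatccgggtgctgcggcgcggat

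Summed over a complex, the treatments overlapped in every case. The 86 members together made up 6404, 6155 and 10482 CPM in PBS replicates 1, 2 and 3, 5772, 5882 and 9285 CPM in mtDNA, and 7184, 5926 and 10418 CPM in Ox-mtDNA. Complex I summed to 1578, 1551 and 2678 CPM in PBS, 1431, 1478 and 2061 in mtDNA, and 1606, 1256 and 2326 in Ox-mtDNA. Complex IV summed to 1091, 1100 and 1892 CPM in PBS, 1030, 1080 and 1834 in mtDNA, and 1344, 1132 and 2099 in Ox-mtDNA. The lowest complex I sum was that of Ox-mtDNA replicate 2 and the highest that of PBS replicate 3. Complex V summed to 2607, 2409 and 4183 CPM in PBS, 2314, 2307 and 3977 in mtDNA, and 3041, 2575 and 4428 in Ox-mtDNA. For complexes IV and V, by contrast with complex I, each Ox-mtDNA sum lay above the PBS and mtDNA sums of its own number. In the second pair, however, just 4 of 13 tested members of complex IV and 7 of 18 of complex V were above PBS. The gap between replicate 3 and the others, at 1.59 to 1.67 times over all members, was larger than any gap between treatments.

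**Figure D3:**
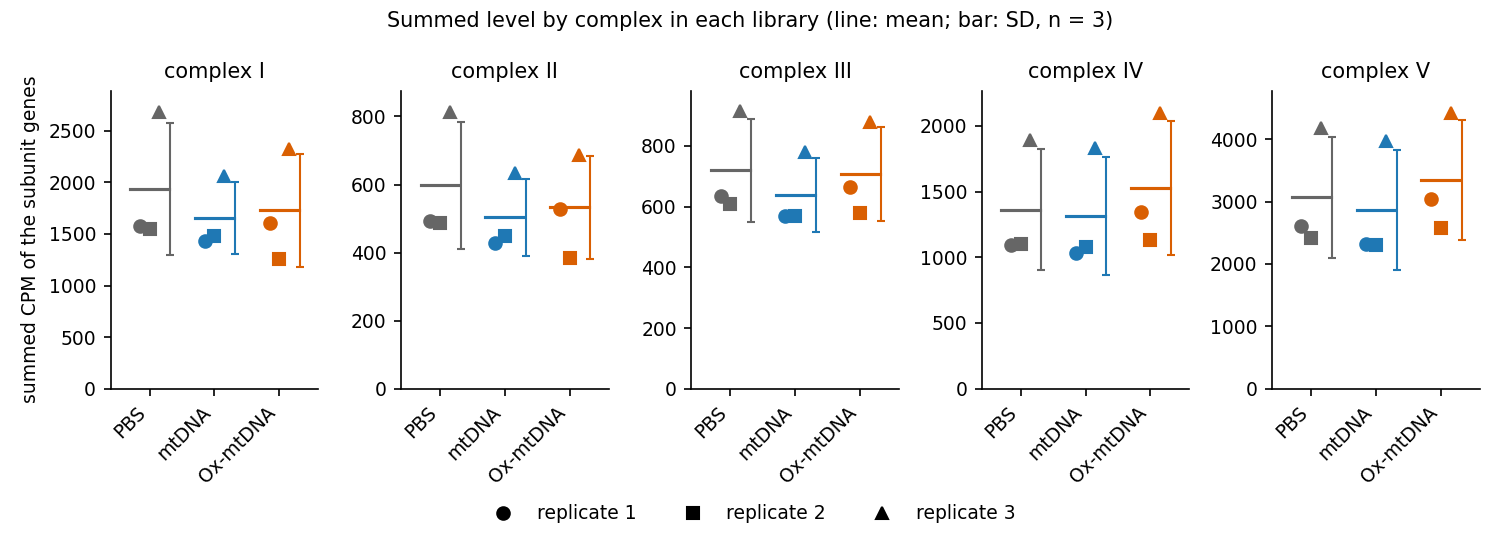
Summed CPM of the member genes of each complex (vertical axis, from 0) in the 9 libraries, by treatment (horizontal axis); markers show replicate number, horizontal lines the mean and bars the SD (n = 3). Replicate 3 is highest in every treatment and complex, for example 2678 against 1578 and 1551 CPM for complex I in PBS.

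Ox-mtDNA against PBS showed lower complex I and slightly higher complex IV transcripts, none of them past the test. The median log2 fold difference of the 81 members was -0.04, beside 0.06 for all 17555 tested genes, and 34 members were positive. By edgeR's quasi-likelihood test 0 members had an adjusted p under 0.05, as did 0% of all genes, and 0 had an unadjusted p under 0.05, against 9.81% of all genes. The lowest adjusted p of a member was 0.595. With the replicate number as a block, 0 members and 1 gene (0.0057%) passed, and 1 member had an unadjusted p under 0.05 against 19.1% of genes. DESeq2's Wald test called 370 genes (2.12%) and 0 members. In these bulk libraries less RNA per cell and fewer expressing cells cannot be told apart.

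Same-numbered libraries were treated as pairs, although the labels do not state a pairing. Of the members, 24 were lower in all 3 pairs, against 17.6% of all genes, and 9 were higher in all 3, against 20% of all genes. Of the 24, 19 belonged to complex I, and of the 9, 4 belonged to complex IV. Medians over the members were 0.12, -0.22 and -0.08 in replicates 1, 2 and 3, so the pairs did not share a direction. Every Ox-mtDNA library lay below every PBS library for 4 members, against 8.08% of all genes, and above for 0, against 7.39%. The median depended on every library: it was -0.38 without Ox-mtDNA replicate 3, 0.10 without Ox-mtDNA replicate 2 and -0.0074 without Ox-mtDNA replicate 1. It was 0.25, -0.21 and -0.19 without PBS replicates 3, 2 and 1, and -0.00011 on replicates 1 and 2 alone.

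Complex I had a median of -0.17, with 30 of 37 tested members negative. Its replicate medians were -0.03, -0.29 and -0.23. All 7 subunits of the matrix arm core, which bear the flavin and iron-sulfur clusters, were negative in the fit with a median of -0.23, but their replicate medians were 0.04, -0.44 and -0.23, 4 of 7 were higher in the first pair, and 3 of 7 were lower in all 3 pairs. Of the accessory subunits 23 of 30 were negative, with a median of -0.16 and replicate medians of -0.03, -0.27 and -0.24. Ndufb7, an accessory subunit of the membrane arm facing the intermembrane space (ENSMUSG00000033938.6, chr8:84293300-84298255, GRCm39), measured 40.6, 39.5 and 64.0 CPM in PBS, 37.3, 40.0 and 30.9 in mtDNA, and 31.0, 24.65 and 39.9 in Ox-mtDNA. Its Ox-mtDNA value was below PBS in each pair, but the third Ox-mtDNA library lay just above PBS replicate 2, so the groups overlapped. The log2 difference was -0.59 (SE 0.30, 95% interval -1.29 to 0.11, edgeR adjusted p = 0.595).

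Ndufs5, an accessory subunit of the same region (ENSMUSG00000028648.14, chr4:123606503-123611995, GRCm39), measured 24.5, 23.2 and 37.5 CPM in PBS and 18.1, 18.1 and 22.8 in Ox-mtDNA. The Ox-mtDNA libraries all lay below the PBS libraries, and the 3 mtDNA libraries, at 20.8, 23.6 and 20.4 CPM, overlapped both groups. The log2 difference from PBS was -0.53 (SE 0.28, edgeR adjusted p = 0.615). Ndufa13, also known as the cell-death regulator GRIM-19, measured 43.0, 44.7 and 54.9 CPM in PBS and 36.1, 28.9 and 41.9 in Ox-mtDNA, again without overlap, for a difference of -0.42 (SE 0.24, edgeR adjusted p = 0.664). Ndufa13 shares 375 exon bases with Tssk6 on the other strand. Ndufa5 and Ndufs7 were picked after their values were seen. Ndufa5 had the most negative difference of the complex, -0.61 (SE 0.38), at 14.4, 14.3 and 29.8 CPM in PBS against 11.2, 13.96 and 13.1 in Ox-mtDNA, and on replicates 1 and 2 alone it was -0.19. Ndufs7, which holds the last iron-sulfur cluster before ubiquinone, was the member with an unadjusted p under 0.05 under the replicate block, 0.0495, with an adjusted p of 0.262 by edgeR. Its levels were 47.9, 44.3 and 63.9 CPM in PBS and 36.5, 21.5 and 50.5 in Ox-mtDNA.

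Other complex I genes differed less or the other way. Ndufs1, the largest core subunit, measured 73.7, 64.9 and 111 CPM in PBS and 69.7, 62.4 and 94.6 in Ox-mtDNA. Ndufv1, which binds NADH, measured 62.7, 67.0 and 98.7 CPM in PBS and 69.9, 44.6 and 88.7 in Ox-mtDNA. Both sets overlapped, with log2 differences of -0.14 (SE 0.34) and -0.17 (SE 0.32). Ndufa4, named for complex I and since assigned to complex IV, measured 51.1, 49.7 and 94.4 CPM in PBS, 47.0, 45.7 and 49.1 in mtDNA and 42.4, 38.7 and 63.2 in Ox-mtDNA, for a difference of -0.43 (SE 0.33). Ndufa6, an accessory subunit of the LYR family, was the 1 member of the complex higher in all 3 pairs. It measured 34.3, 35.2 and 73.0 CPM in PBS and 52.05, 38.4 and 87.8 in Ox-mtDNA, a difference of 0.32 (SE 0.48, edgeR adjusted p = 0.974) with overlapping groups.

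Complex II had a median of -0.18, and each of its 4 members was negative in the fit. The replicate medians were 0.08, -0.10 and -0.31: all 4 members were higher in the first pair, and 0 were lower in all 3 pairs. Sdha, the flavoprotein that oxidizes succinate, measured 245, 239.9 and 389 CPM in PBS and 265, 151 and 357 in Ox-mtDNA, so Ox-mtDNA was higher in the first pair and lower in the other two pairs. Sdhb, the iron-sulfur subunit, differed by -0.21 (SE 0.31), and the membrane anchors Sdhc and Sdhd by -0.19 (SE 0.23) and -0.05 (SE 0.38).

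Complex III had a median of -0.03, with 6 of 9 members negative and replicate medians of 0.12, -0.26 and -0.06. Uqcrc1 measured 154, 139.9 and 134 CPM in PBS, 122, 118 and 108 in mtDNA and 118, 113 and 128 in Ox-mtDNA. All PBS values lay above all Ox-mtDNA values and the 3 replicates were alike, so that its standard error of 0.20 was among the smallest, yet the difference of -0.25 had an edgeR adjusted p of 0.828. Uqcrh, the hinge protein that binds cytochrome c1, ran the other way at 82.1, 75.7 and 148 CPM in PBS and 110.0, 103 and 157 in Ox-mtDNA, higher in each pair by a fitted 0.27 (SE 0.39). Uqcrfs1, the Rieske iron-sulfur protein, differed by 0.14 (SE 0.40) and Cyc1 by -0.04 (SE 0.24). Uqcrb and Uqcr11, small accessory subunits, differed by -0.47 (SE 0.34) and -0.49 (SE 0.38), whereas Uqcr10 and Uqcrq differed by -0.01 and 0.10.

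Complex IV had a median of 0.13, with 12 of 13 tested members positive and replicate medians of 0.29, -0.09 and 0.15. Cox4i1 measured 326, 324 and 535 CPM in PBS, 308, 329.7 and 519 in mtDNA and 399, 342 and 602 in Ox-mtDNA. Its Ox-mtDNA values were the highest for each replicate number, but the groups overlapped and the difference from PBS was 0.18 (SE 0.35, 95% interval -0.62 to 0.98, edgeR adjusted p = 1). Cox7a2l, which links complexes III and IV into supercomplexes, measured 158, 147 and 315 CPM in PBS and 201, 218 and 368 in Ox-mtDNA, a difference of 0.34 (SE 0.49). On replicates 1 and 2 alone that of Cox7a2l was 0.46 with an unadjusted p of 0.0416 and an adjusted p of 0.303 by edgeR. Cox5a, a subunit on the matrix side, differed by 0.12 (SE 0.37) and Cox8a by 0.24 (SE 0.44). The largest value, 0.81 (SE 0.57) for Cox7a1, came from 1 library at 1.53 CPM where the other libraries lay between 0.412 and 0.671 CPM.

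Complex V had a median of 0.05, with 12 of 18 members positive and replicate medians of 0.18, -0.09 and 0.01. The catalytic Atp5f1b measured 712, 629 and 1031 CPM in PBS, 598, 583 and 1230 in mtDNA and 888, 787 and 1371 in Ox-mtDNA. It was higher in each Ox-mtDNA library than in the same-numbered libraries of both other groups, for a difference from PBS of 0.36 (SE 0.39, 95% interval -0.54 to 1.26, edgeR adjusted p = 0.916). Its partner in the catalytic head, Atp5f1a, measured 683, 598 and 1107 CPM in PBS and 744, 665 and 962 in Ox-mtDNA, a difference of -0.01 (SE 0.34). The 3 genes of the F1 central stalk, which turns within the head, were all positive in the fit with a median of 0.17, but 1 of 3 was higher in the second pair, where their median was -0.22; of these Atp5f1d differed by 0.31 (SE 0.29) and was higher in all 3 pairs. Atp5if1, the inhibitor that blocks reverse ATP hydrolysis, differed by 0.18 (SE 0.29). Atp5me and Atp5pf, of the membrane part and the peripheral stalk, were lower in all 3 pairs, by a fitted -0.45 (SE 0.41) and -0.37 (SE 0.28). Exons of Atp5if1 overlap Gm12999 and those of Atp5pf overlap Gabpa on the other strand.

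In Ox-mtDNA against PBS the separation between complexes held within each replicate number. The median of complex IV exceeded that of complex I by 0.32, 0.20 and 0.39 in replicates 1, 2 and 3 of Ox-mtDNA against PBS, and that of complex V exceeded complex I by 0.21, 0.20 and 0.25. In mtDNA against PBS the excess of complex IV over complex I was -0.00, 0.01 and 0.31. In Ox-mtDNA against mtDNA it was 0.31, 0.18 and 0.02, and that of complex V was 0.23, 0.17 and 0.03. Between the DNA treatments the third pair thus showed almost no separation. These are differences of medians over genes of the same libraries and were not tested. Ndufa4 was counted with complex I by its symbol, and the medians were not recomputed with it in complex IV. Exons of 25 tested members, 14 of them in complex I, overlap another gene. Most of these partners lie on the other strand and cannot be separated by unstranded counts, and those of Ndufb2 (Gm42420), Ndufb8, Ndufb9 and Atp5po lie on the same strand, where strand would not separate them. Over the 56 members free of overlap the median in Ox-mtDNA against PBS was -0.05 against -0.04 for all 81. The separation between complexes was not recomputed on these members.

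**Figure D4:**
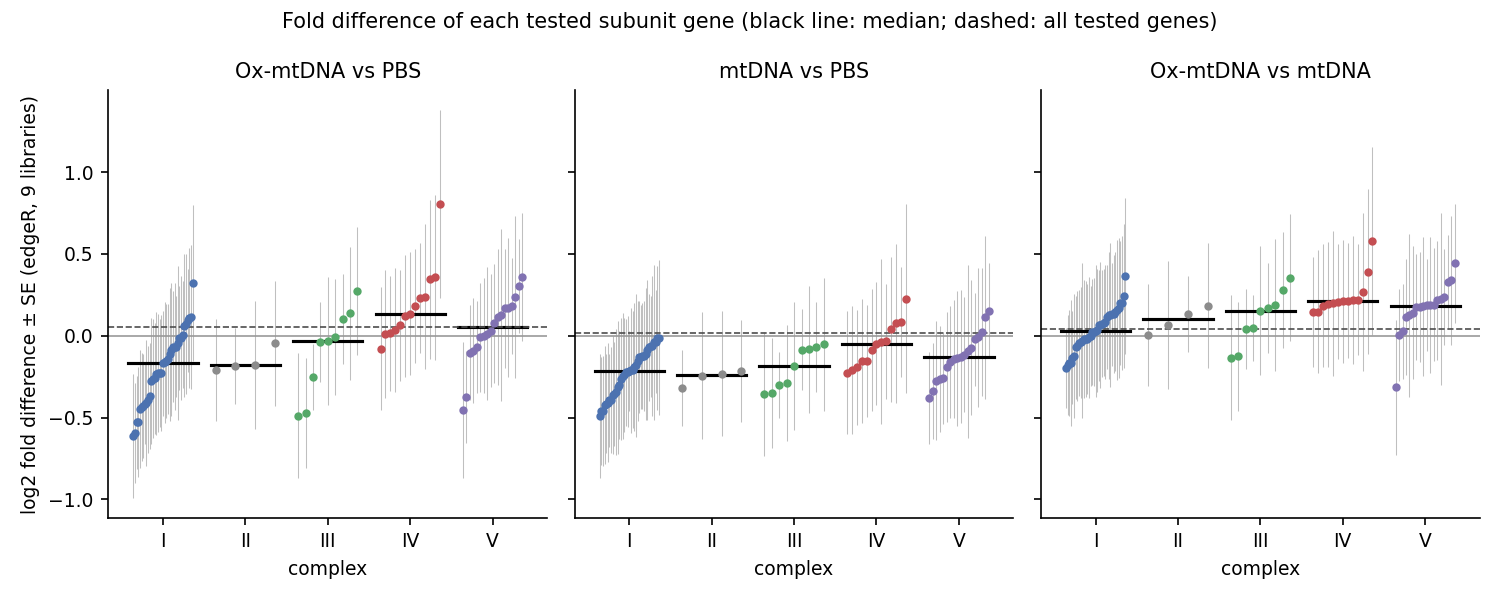
Log2 fold difference of each tested member with its standard error (vertical axis, edgeR on 9 libraries), sorted within complexes I to V (horizontal axis), 1 panel per comparison. Black lines are medians of a complex and the dashed line is the median of all tested genes; in Ox-mtDNA against PBS, complex I lies at -0.17 and complex IV at 0.13, and most standard errors span 0.

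Unoxidized mtDNA against PBS gave small negative differences for nearly all members. The median was -0.18 beside 0.02 for all genes, and 74 of 81 members were negative, including all 37 of complex I, all 4 of complex II and all 9 of complex III. No member passed: edgeR gave 0 members and 0% of genes with an adjusted p under 0.05, and 0 members with an unadjusted p under 0.05 against 2.62% of genes. The replicate block gave 0 members and 0% of genes, with 0 members and 5.68% of genes under an unadjusted p of 0.05, and DESeq2 gave 0 members and 14 genes (0.0836%). In 39 members all 3 pairs were lower, against 19.4% of all genes, and in 0 members all 3 were higher, against 20.8%. The groups did not overlap for 5 members, all lower (4.96% of all genes), and for 0 higher (5.58%).

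Replicate medians over the members were -0.09, -0.04 and -0.30, most of the difference lying in the third pair. Without PBS replicate 3, which leaves the third mtDNA library with no partner, the median was 0.11 with 59 of 81 positive. It was -0.45 without mtDNA replicate 3, -0.32 and -0.30 without PBS replicates 1 and 2, and -0.09 and -0.12 without mtDNA replicates 1 and 2. On replicates 1 and 2 alone it was -0.08 with 21 of 81 positive, and with the replicate block -0.15 with 8 positive. Uqcrc1 had the lowest unadjusted p of a member, 0.177, with a difference of -0.30 (SE 0.20) that was alike in the 3 pairs, at -0.34, -0.25 and -0.31. Ndufa4 differed by -0.46 (SE 0.33) and its pairs by -0.12, -0.12 and -0.94, so that most of its difference lay in replicate 3. Sdhc measured 73.2, 77.4 and 109 CPM in PBS against 71.7, 70.1 and 65.8 in mtDNA, without overlap, for a difference of -0.32 (SE 0.23). Atp5pf and Atp5mc1 differed by -0.38 (SE 0.28) and -0.34 (SE 0.29). Complex IV was closest to no difference, with a median of -0.05 and 4 of 13 members positive.

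Ox-mtDNA against mtDNA gave small positive differences, with a median of 0.13 beside 0.04 for all genes and 62 of 81 members positive. All 13 members of complex IV and 17 of 18 of complex V were positive, with medians of 0.21 and 0.18, whereas complex I had a median of 0.03 with 21 of 37 positive. By edgeR 0 members and 0% of genes had an adjusted p under 0.05, and 0 members an unadjusted p under 0.05 against 2.4% of genes. The block gave 0 members and 0% of genes, with 0 members and 6.81% of genes under an unadjusted p of 0.05, and DESeq2 gave 0 members and 1 gene (0.00574%). In 21 members all 3 pairs were higher, against 15.1% of all genes, and in 0 all 3 were lower, against 12.7%. For 1 member, Sdhc, every Ox-mtDNA library lay above every mtDNA library (2.04% of all genes), and for 0 members below (2.79%). Both PBS comparisons and this one share libraries in pairs, so their values are set side by side and not taken as separate evidence.

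Replicate medians of the members in this comparison were 0.22, -0.13 and 0.23. Without Ox-mtDNA replicates 3, 2 and 1 the median was -0.20, 0.28 and 0.20, without mtDNA replicates 3, 2 and 1 it was 0.38, 0.03 and 0.02, and on replicates 1 and 2 alone 0.09. Atp5md, a small membrane subunit that helps ATP synthase dimers, had the lowest unadjusted p at 0.259: it measured 24.4, 28.3 and 41.1 CPM in mtDNA and 35.0, 37.7 and 54.7 in Ox-mtDNA, higher in each pair by 0.51, 0.41 and 0.41. Its fitted difference was 0.44 (SE 0.37, 95% interval -0.39 to 1.28). Uqcrh measured 73.6, 74.8 and 141 CPM in mtDNA beside its Ox-mtDNA values of 110.0, 103 and 157, a difference of 0.35 (SE 0.39). On replicates 1 and 2 alone 4 members had an unadjusted p under 0.05: Uqcrh at 0.53, Cox7a2l at 0.53 and Atp5f1b at 0.51 were higher, and Atp5me at -0.86 was lower, with edgeR adjusted p of 0.263, 0.268, 0.272 and 0.231. In the third pair Atp5me was 0.57 higher.

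**Figure D5:**
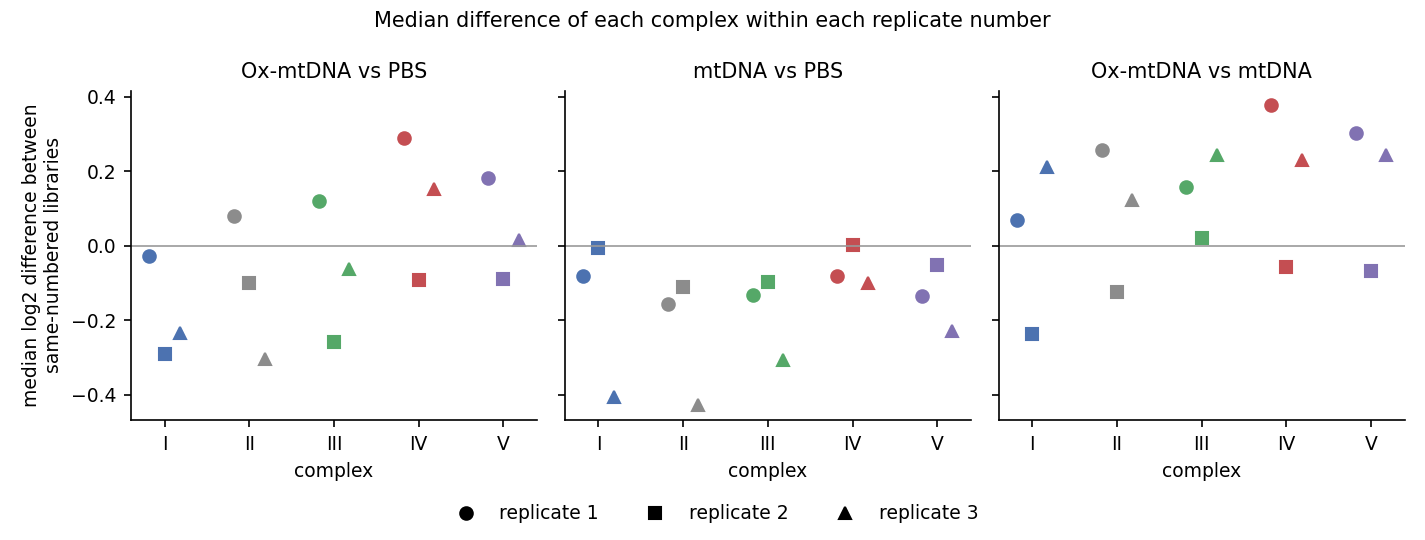
Median log2 difference between same-numbered libraries over the tested members of each complex (horizontal axis), 1 panel per comparison, with markers for the replicate number. In Ox-mtDNA against PBS complex IV lies above complex I in each replicate (0.29, -0.09 and 0.15 against -0.03, -0.29 and -0.23), while in complexes II to V the replicates differ in sign.

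The count of 0 calls was read beside the spread between libraries. On counts simulated with the spread of these libraries, the unblocked test called none of the genes given large known changes. It recovered nearly all of them at a lower spread, so an absence of calls does not show an absence of change. The changed genes were drawn from all tested genes, whose median standard error in Ox-mtDNA against PBS was 0.54, larger than that of the members. The simulated spread was independent between libraries, whereas the third libraries of these data differed together. The fit with the replicate block was not simulated. For both reasons the simulation does not measure how large a change in the members could be detected. The median standard error of a member was 0.36 on the log2 scale in the fit of all 9 libraries and 0.20 with the replicate block. In Ox-mtDNA against PBS the 95% interval lay within 1 log2 unit of 0 for 38 of 81 members, and for 70 of 81 with the block. The same counts were 32 and 78 for mtDNA against PBS and 45 and 78 for Ox-mtDNA against mtDNA.

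The other genes of the pathway gave 0 calls in any list and comparison by edgeR. The 13 subunits encoded by mitochondrial DNA itself differed in pattern from the nuclear members. They summed to 15323, 13886 and 28940 CPM in PBS, 14445, 13408 and 26024 in mtDNA, and 29266, 29357 and 25109 in Ox-mtDNA. Replicates 1 and 2 of Ox-mtDNA were thus about as high as the third libraries of the other groups. Their median differences from PBS were 1.0025, 1.12 and -0.23 within replicates 1, 2 and 3, where the nuclear members had 0.12, -0.22 and -0.08. In the fit of all libraries their median was 0.60, and 11 of 13 were positive. An unadjusted p under 0.05 was found for 2, mt-Co3 and mt-Atp6, with edgeR adjusted p of 0.473 and 0.482. These 2 had few counts, at 6.19 to 24.6 and 5.95 to 27.2 CPM, and mt-Nd3, mt-Nd4l, mt-Co2 and mt-Atp8 were at most 23.1 CPM. By contrast mt-Co1, the largest part of the sums, lay between 5747 and 14806 CPM and differed by 0.69 (SE 0.44). The median weighs all 13 alike. Against mtDNA the median of the 13 was 0.77 with 13 of 13 positive. The replicate medians were 1.18, 1.24 and -0.05, so the third pair did not share the difference. Both DNA treatments added mitochondrial DNA to the cells, and whether reads from it entered these counts was not tested.

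Assembly factors, which build the complexes but are not part of them, had a median of -0.26 in Ox-mtDNA against PBS, with 14 of 55 positive and replicate medians of -0.14, -0.33 and -0.24. Of the 55, 4 had an unadjusted p under 0.05, a smaller share than the 9.81% of all genes. They were Coa3 and Cox15 for complex IV, Ndufaf8 for complex I and Atpaf1 for complex V, all lower, with differences of -0.89, -0.70, -0.77 and -0.68 and edgeR adjusted p of 0.472, 0.478, 0.495 and 0.495. Cox15, needed to make heme A, measured 51.0, 52.0 and 55.6 CPM in PBS, 61.4, 61.4 and 40.5 in mtDNA and 25.7, 33.5 and 38.6 in Ox-mtDNA. Its Ox-mtDNA libraries all lay below the PBS libraries. The 15 genes of the acyl carrier protein, coenzyme Q and cytochrome c had a median of 0.06 with 9 positive and replicate medians of 0.08, -0.30 and 0.24. Among them Coq10b, a coenzyme Q binding protein, had an unadjusted p under 0.05, with a difference of 1.98 (SE 0.71, edgeR adjusted p = 0.472).

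Of the 10 regulators of nuclear mitochondrial genes, 4 were positive in Ox-mtDNA against PBS with a median of -0.17 and replicate medians of -0.44, 0.11 and -0.51. Nrf1 measured 57.4, 46.1 and 62.5 CPM in PBS and 37.7, 53.4 and 44.2 in Ox-mtDNA, a difference of -0.30 (SE 0.25), and Gabpa differed by -0.18 (SE 0.28). Creb1 had an unadjusted p under 0.05, with a difference of -0.92 (SE 0.31, edgeR adjusted p = 0.472). Yy1 measured 11.8, 5.33 and 7.89 CPM in the third library of PBS, mtDNA and Ox-mtDNA and at least 169.5 CPM in the other libraries, the reverse of the members, which were higher in those libraries. Ppargc1a, the coactivator that drives mitochondrial biogenesis in other tissues, was at most 3.91 CPM in any library.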

How the data were processed

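RNA-seq of 9 libraries of sorted mouse pDCs was analysed, 3 per treatment. The deposited table holds raw counts per gene made by the authors with featureCounts 2.0.1 on exons, summed by gene over GENCODE vM34, with paired-end and multi-overlap counting and no strand option, per the file headers; trimming with fastp 0.23.4 and alignment with STAR 2.7.11b are named in the submitters' processing notes. With multi-overlap counting, a fragment over exons of 2 genes is counted for both. Totals ran from 16029951 to 25378884 counts. Symbols were matched by Ensembl identifier (51884 of 57126 genes).

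Genes with too few counts were filtered with edgeR 4.0.16 (minimum count 10, R 4.3.3), leaving 17555, libraries were scaled by TMM, and edgeR's quasi-likelihood test was fitted over all genes and 9 libraries with treatment as the factor (6 residual degrees of freedom), with Benjamini-Hochberg adjustment over all genes and a threshold of 0.05. The unblocked fit was tested on simulated data, with known changes in genes drawn from all tested genes. It recovered them at a low spread between libraries, but made no calls at the spread of these libraries. Differences within a replicate number are on log2(CPM + 0.5). Alternatives used DESeq2 1.42.0, limma 3.58.1 (voom), other scalings and filters, GC offsets, a replicate block and left-out libraries. Same-numbered libraries deviated together (9 correlations of deviations from 0.498 to 0.905), and in 7 of the 9 the best match was the same number. PBS replicate 2 matched best with Ox-mtDNA replicate 1, and mtDNA replicate 1 with Ox-mtDNA replicate 2. The third libraries stood apart in every group, so the check does not settle how replicates 1 and 2 pair with Ox-mtDNA. The numbers were nevertheless taken to pair the libraries, and the labels do not state a pairing.

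Named members were, per complex, members passing the test, the 2 lowest unadjusted p per comparison, the most and least abundant, fixed core subunits and fixed isoform families; other names are said to be later choices or are all genes with a stated property. The members and lists were chosen with earlier results of these data known.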

Additional observations from a re-analysis of the deposited data

How the results depend on the processing

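Members with an adjusted p under 0.05 numbered 0 under each of the 18 alternative settings run for each comparison. Among all tested genes, Ox-mtDNA against PBS gave 0 calls in the reported fit, 370 with DESeq2, 25 on replicates 1 and 2 only, 1 with the replicate block and 1 with the replicate block and GC offsets; DESeq2 called 14 in mtDNA against PBS and 1 in Ox-mtDNA against mtDNA. The cause was not tested. With libraries left out in turn, the members' median ranged from -0.38 to 0.25 in Ox-mtDNA against PBS, from -0.45 to 0.11 in mtDNA against PBS and from -0.20 to 0.38 in Ox-mtDNA against mtDNA, and the largest shifts came from the third libraries. Under the 12 other settings the medians ranged from -0.14 to -0.00011, from -0.24 to -0.08 and from 0.09 to 0.15. The replicate block gave medians of -0.06, -0.15 and 0.12 and changed no member's call. With the block and GC offsets together, 7, 2 and 1 members had an unadjusted p under 0.05 in the 3 comparisons, and the lowest adjusted p of a member over these settings was 0.146 by edgeR. Leaving out a library changed the sign of a named member in 54, 49 and 43 of 246 checks per comparison. With 3 libraries a group and this spread between them, the count of 0 calls does not show that the members did not change.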
